A study of Mus musculus with 6 samples.

Results

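The potassium channel genes of the mouse were examined in cultured sensory neurons given oncomodulin. The set holds every protein-coding gene whose symbol starts with Kcn, which is 94 of the 45777 genes counted, in 21 subfamilies. RNA was sequenced from 6 samples of cultured dorsal root ganglion (DRG) cells, labelled as cultured neurons of adult C57BL/6 mice, 8 weeks old and female. PBS was the control in 3 samples, 3 others had recombinant oncomodulin (ONCM) at 100 ng/ml, a protein that binds calcium and is secreted by immune cells, and the treatment time was 12 hours in both groups. No transgene or deletion is named for either group, and the labels call the replicates biological but do not say whether they came from separate animals or cultures, so each p-value rests on the spread between these 6 samples, which may be technical.

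Potassium channels let potassium leave the cell and so hold the resting potential, repolarise the action potential and limit repeated firing. A voltage-gated channel is built of several pore-forming subunits, often from different genes of a subfamily, and is modified by silent subunits that form no channel alone and by auxiliary subunits that change its gating or its transport. In sensory neurons these channels are known to set the threshold and the firing pattern of touch and pain fibres, and several are known to fall after nerve injury.

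Between 53770820 and 64477014 reads were counted per library. The 24 pan-neuronal markers were present in all libraries. They summed to 28470 to 29340 CPM (read counts scaled to a common total, with TMM factors) with PBS and 27530 to 28940 CPM with ONCM. By the test given below, 7 of these 24 rose and 12 fell, where 23.9% of all tested genes rose and 24.4% fell. The cultures also held transcripts of other cells. Schwann cell markers summed to 5471 to 5490 CPM with PBS and 5366 to 5531 CPM with ONCM (6 of 18 rose and 3 fell). Satellite glia markers summed to 2961 to 3024 and 3095 to 3222 CPM (6 of 14 rose and 3 fell). Macrophage markers summed to 66.2 to 71.2 and 214 to 223 CPM, where 19 of 20 genes rose and none fell. Fibroblast markers summed to 411 to 419 and 557 to 581 CPM (7 of 15 rose and none fell). Endothelial markers summed to 290.5 to 299 and 354 to 364 CPM (9 of 15 rose and none fell). T cell markers summed to 7.40 to 8.69 and 10.9 to 11.8 CPM (of 6 tested, 3 rose and 1 fell). No gene of these lists was at 0 in all libraries, and the part of these cells in the results below was not tested. In bulk RNA, fewer cells of a type and less RNA per cell cannot be told apart. The sex-linked transcripts went against the labels, which give female for all samples. Xist, the RNA of the inactive X chromosome, went from 0.530 ± 0.0526 to 478 ± 55.8 CPM (PBS before ONCM, mean ± SD, n = 3 per group), and Ddx3y, on chromosome Y, from 60.5 ± 2.17 to 16.1 ± 0.933 CPM. The groups did not overlap in either gene, so treatment and the sex or source of the cells cannot be told apart in any result here, and no value within 1 sex could be had.

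Most potassium channel genes were lower with ONCM. Of the 94, 84 passed the low-count filter and were tested, 56 fell, 8 rose and 20 did not pass (edgeR quasi-likelihood test, Benjamini-Hochberg adjusted p under 0.05 over all 20354 genes tested). The 64 that passed were 76.2% of those tested, against 48.3% of all tested genes. Lowered genes were 66.7% of the tested potassium channel genes and 24.4% of all tested genes, and raised genes were 9.52% and 23.9%. On a log2(TPM + 1) scale 39.3% of all calls were rises, against 49.5% on counts, and the potassium channel genes divided into 52 lowered and 6 raised. At least 2-fold falls made up 13.1% of the tested potassium channel genes and 2.01% of all tested genes. The groups did not overlap for 65 of the 84 (77.4%), against 55.6% of all tested genes. The median log2 fold change was -0.58 over the 84 genes and -0.00212 over all tested genes. By role, 20 of 29 voltage-gated pore genes fell and 3 rose, 8 of 10 silent subunits fell, and 11 of 13 auxiliary subunits fell and 1 rose. Of the ion-activated pores 5 of 8 fell and 1 rose, of the inward rectifiers 8 of 12 fell, and of the tandem-pore channels 4 of 12 fell and 3 rose. With a minimum of 1.5-fold, 39 genes were lowered (46.4%, against 7% of all tested genes) and 4 raised (4.76%, against 9.52%). With no fold minimum, all 64 calls kept their sign in each of 17 other settings that tested the gene, and 53 also kept the call in each.

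**Figure D1:**
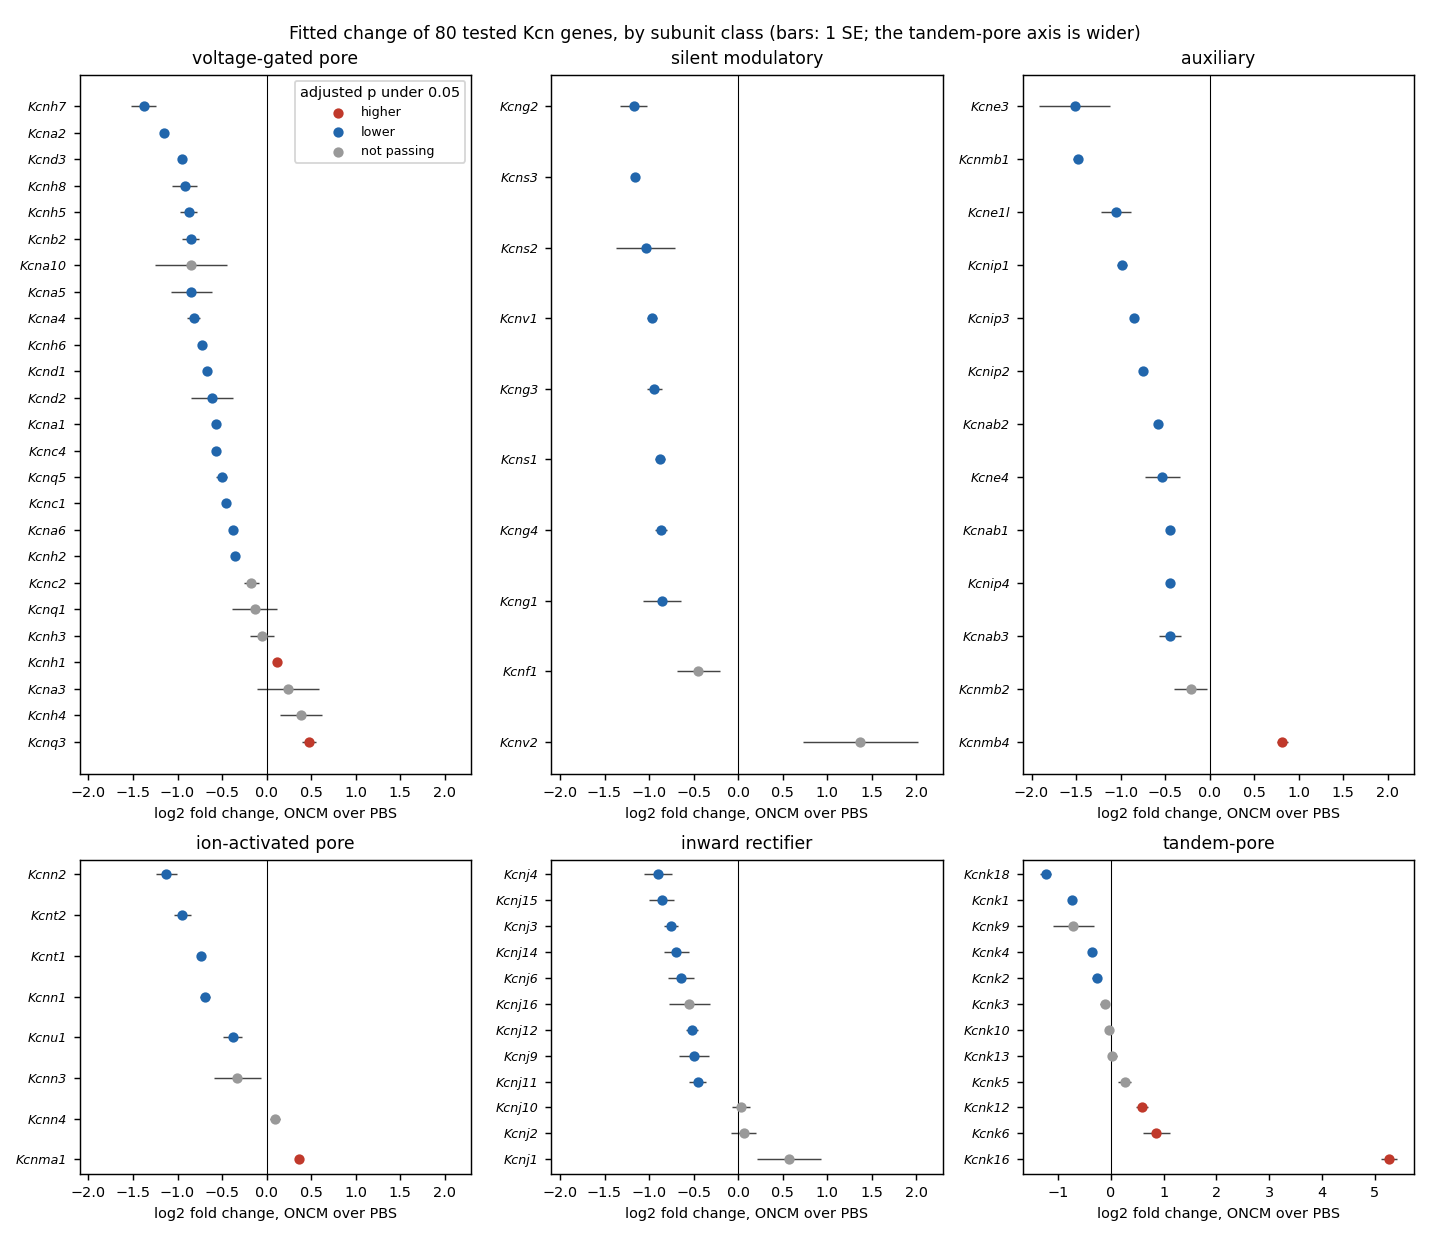
Log2 fold change of ONCM over PBS for 80 of the 84 tested Kcn genes (points) with 1 SE (bars), in panels by subunit class, coloured by the edgeR call. The points lie left of 0 for 64 of the 80 genes drawn, and Kcnk16 stands alone at 5.27 on the wider tandem-pore axis.

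Levels per gene length were compared in TPM (transcripts scaled to a common total), which the authors deposited. All potassium channel genes together took 2796, 2765 and 2702 TPM in the PBS libraries and 1729.8, 1799.9 and 1749 TPM in the ONCM libraries. The sum with ONCM was thus 63.9% of that with PBS, and the groups did not overlap. The most abundant gene was Kcnab2, an auxiliary subunit, at 691 and 435 TPM with PBS and ONCM, followed by Kcnip3 at 250.1 and 133 TPM, Kcna1 at 208 and 134 TPM and Kcnd1 at 149 and 89.4 TPM. Of the 35 genes with at least 10 TPM with PBS, 30 fell, 4 rose (among them Kcnmb4, Kcnq3 and Kcnh1) and 1, Kcnn4, did not pass. This cut was made on the PBS level alone, so it favours genes that are higher with PBS. The shares of all tested genes at this cut were not computed. Without it, 24.4% of all tested genes fell and 23.9% rose.

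**Figure D2:**
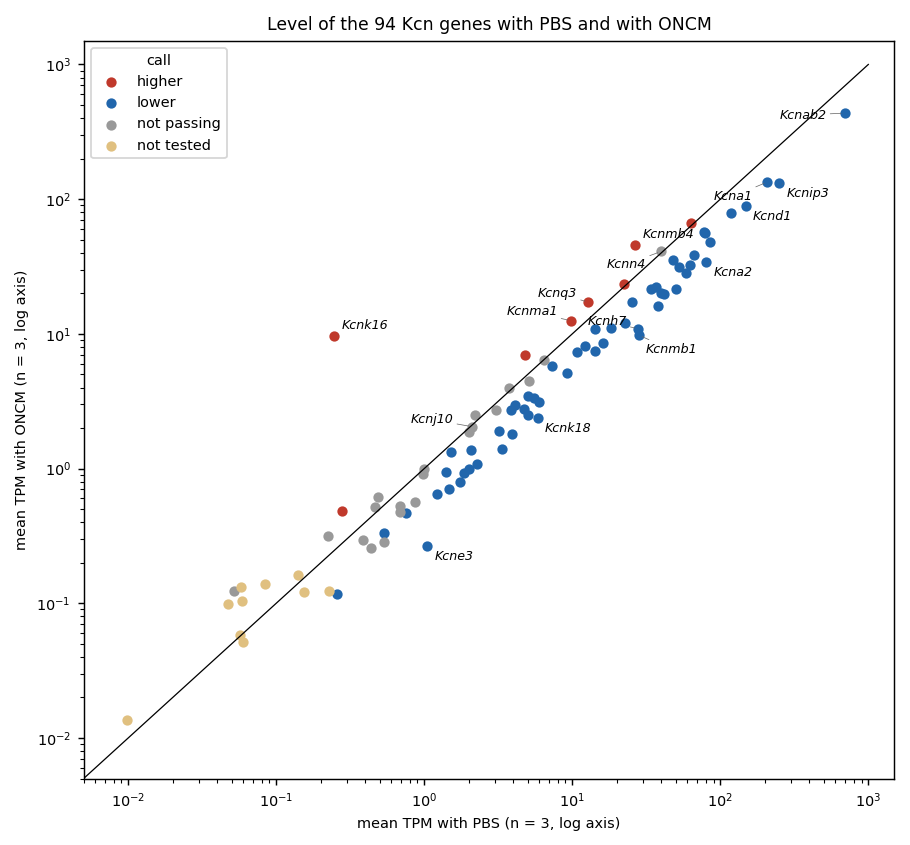
Mean TPM with ONCM against mean TPM with PBS for the 94 Kcn genes (n = 3 per group, both axes logarithmic), coloured by call; the line marks equal levels. Most of the abundant genes lie below the line, Kcnab2 among them, and Kcnk16 lies far above it.

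Kcna genes encode the Shaker-type channels that restrain firing at the juxtaparanode of myelinated axons and at the axon's initial part. In this subfamily 5 of 7 tested genes fell and none rose, against 24.4% lowered and 23.9% raised among all tested genes. The summed level of the subfamily went from 343 ± 9.97 to 208 ± 11.01 TPM (SD, n = 3). Kcna2 (chromosome 3, 107090883 to 107115005 on mm10) was counted at 376, 373 and 358 CPM with PBS and 169.6, 176 and 152 CPM with ONCM. The groups lay far apart, with the ONCM mean at 44.9% of the PBS mean and ONCM replicate 3 the lowest (log2 fold change -1.15, SE 0.04, edgeR adjusted p = 8.13e-12). Kcna1 (chromosome 6, 126636463 to 126645801), the partner of Kcna2 in mixed channels, was counted at 744, 744 and 717 CPM with PBS and 499.6, 510.3 and 474 CPM with ONCM. Its groups did not overlap either, and its fall was smaller, a difference that was not tested (log2 fold change -0.57, SE 0.03, edgeR adjusted p = 2.34e-11). The ratio of Kcna1 to Kcna2 in TPM was 2.59 to 2.61 in the PBS libraries and 3.80 to 4.10 in the ONCM libraries, a pair chosen after its values were seen and described without a test. Kcna4, the rapidly inactivating member known from nociceptors, was counted at 14.7, 13.4 and 15.2 CPM with PBS and 8.37, 8.53 and 7.59 CPM with ONCM. Kcna6, a delayed rectifier, was counted at 112, 114 and 108 CPM with PBS and 84.3, 87.6 and 85.5 CPM with ONCM. Both fell without overlap, by 1.77-fold and 1.30-fold. Kcna5 fell 1.80-fold from a low level, a call lost without PBS replicate 2 (adjusted p = 0.0555). Kcna3, known from T cells and microglia, was counted at 0.495, 0.268 and 0.329 CPM with PBS and 0.428, 0.566 and 0.305 CPM with ONCM, and neither it nor Kcna10 passed.

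The 3 Kcnab genes encode the cytoplasmic beta subunits that bind Kcna channels. All fell, against 24.4% lowered among all tested genes. Kcnab2 (chromosome 4, 152390744 to 152477549) was counted at 1087, 1090.1 and 1079 CPM with PBS and 700.3, 726 and 751 CPM with ONCM. All 3 ONCM libraries lay below all PBS libraries (log2 fold change -0.58, SE 0.03, edgeR adjusted p = 6.53e-12). Kcnab1 fell 1.36-fold and Kcnab3 1.36-fold.

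Kcnb genes encode the delayed rectifiers that cluster on the cell body. Kcnb2 was counted at 103, 96.9 and 97.6 CPM with PBS and 55.9, 61.7 and 46.9 CPM with ONCM. ONCM replicate 3 was the lowest, and the fall remained without it (log2 fold change -0.75, against -0.85 with all libraries).

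The silent subunits of the Kcnf, Kcng, Kcns and Kcnv subfamilies join Kcnb subunits and shift their gating. Of the 10 tested, 8 fell and none rose, against 24.4% lowered and 23.9% raised among all tested genes. Kcnf1 and Kcnv2 did not pass. The Kcns level per length was 47.95% of that with PBS. Kcns3 (chromosome 12, 11090202 to 11151168) was counted at 52.1, 51.2 and 50.8 CPM with PBS and 22.1, 22.9 and 24.1 CPM with ONCM, a fall of 2.23-fold. Kcns1, whose variants have been studied in chronic pain, was counted at 68.3, 65.4 and 67.6 CPM with PBS and 32.3, 37.6 and 39.3 CPM with ONCM. The groups were well apart in both genes, and Kcns1 fell 1.84-fold (log2 fold change -0.88, SE 0.06, edgeR adjusted p = 8.43e-10). Among the Kcng genes, Kcng4 had the highest level per length and was counted at 21.05, 21.8 and 20.5 CPM with PBS and 10.6, 11.8 and 12.3 CPM with ONCM, without overlap. Kcng2 was counted at 3.50, 3.43 and 3.91 CPM with PBS and 1.25, 1.58 and 1.97 CPM with ONCM (log2 fold change -1.17, SE 0.15, edgeR adjusted p = 3.96e-06). Kcng3 and Kcng1 fell 1.92-fold and 1.80-fold, from means of 11.9 and 2.32 CPM with PBS. Kcnv1, which suppresses Kcnb currents, was counted at 26.3, 26.4 and 26.3 CPM with PBS and 14.1, 13.4 and 12.8 CPM with ONCM, a fall of 1.96-fold without overlap. Kcnf1 was counted at 1.13, 1.72 and 1.07 CPM with PBS and 1.02, 0.666 and 1.18 CPM with ONCM, with overlapping groups. Kcns2 was under 1 CPM in all libraries.

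Kcnc genes encode fast voltage-gated channels, some of which allow firing at high rates. Kcnc4 and Kcnc1 fell 1.48-fold and 1.37-fold, and Kcnc2 did not pass, at 7.41 and 6.58 CPM.

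Kcnd genes carry an A-type current, which delays the return to threshold, and need Kcnip proteins for surface expression and gating. All 3 Kcnd and all 4 Kcnip genes fell, against 24.4% lowered among all tested genes. Kcnd1 (chromosome X, 7823759 to 7838278), on the X chromosome, was counted at 224, 227 and 218 CPM with PBS and 139, 140.3 and 142 CPM with ONCM. The ONCM libraries were tightly grouped below the PBS libraries (log2 fold change -0.67, SE 0.03, edgeR adjusted p = 2.34e-12). Kcnd3, which marks subsets of small DRG neurons, was counted at 119.5, 123 and 116 CPM with PBS and 62.8, 64 and 59.4 CPM with ONCM. It fell 1.93-fold, more than the 1.59-fold of Kcnd1, although that difference was not tested. Kcnd2 was near 1 CPM and its call was lost without PBS replicate 1, 2 or 3 and without ONCM replicate 1 (log2 fold change -0.33, against -0.61 with all libraries). The Kcnd2 call was also lost with the DESeq2 test, on log2(TPM + 1) and on log2(TPM + 0.1).

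Kcnip3, also known as the calcium-binding repressor DREAM, was counted at 290.2, 289 and 286 CPM with PBS and 154, 163 and 162 CPM with ONCM. The fall was to 55.4% of the PBS level (log2 fold change -0.85, SE 0.03, edgeR adjusted p = 1.11e-13). Kcnip1 was counted at 37.1, 33.4 and 35.5 CPM with PBS and 17.4, 16.8 and 19.3 CPM with ONCM. Kcnip4 was counted at 120.1, 118 and 119 CPM with PBS and 89.3, 87.9 and 85.3 CPM with ONCM. Neither overlapped between groups, and Kcnip4 and Kcnip2 fell 1.36-fold and 1.68-fold. The other known partners of Kcnd channels, the dipeptidyl-peptidase-like genes Dpp6 and Dpp10, both fell, Dpp6 from 489 ± 5.98 to 329 ± 5.93 CPM and Dpp10 from 111 ± 5.67 to 54.7 ± 0.889 CPM. The Kcnd channel group was thus lower in each of its pore, Kcnip and Dpp components.

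Kcnq genes encode the M-current, a slow current that muscarinic receptors close and that holds neurons below threshold. Its genes did not all move one way. Kcnq3 (chromosome 15, 65986374 to 66286636), a subunit of the main neuronal M-channel, was counted at 58.6, 60.1 and 60.3 CPM with PBS and 88.6, 89.4 and 71.3 CPM with ONCM. ONCM replicate 3 was lower than the other two and still above all PBS libraries (log2 fold change 0.48, SE 0.08, edgeR adjusted p = 0.000939, and 0.58 without that library). Kcnq5, another M-channel subunit, was counted at 37.7, 33.3 and 34.1 CPM with PBS and 26.2, 25.9 and 22.1 CPM with ONCM. Here the groups lay in the opposite order (log2 fold change -0.50, SE 0.06, edgeR adjusted p = 2.80e-06). Kcnq1, best known from heart and inner ear, did not pass. The TPM ratio of Kcnq3 to Kcnq5 lay between 0.983 and 1.09 in PBS libraries and between 2.02 and 2.16 in ONCM libraries. Ank3, the ankyrin that anchors these channels at the axon initial segment, rose from 308 ± 21.6 to 426 ± 30.8 CPM (SD, n = 3), with a log2 fold change of 0.47.

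**Figure D3:**
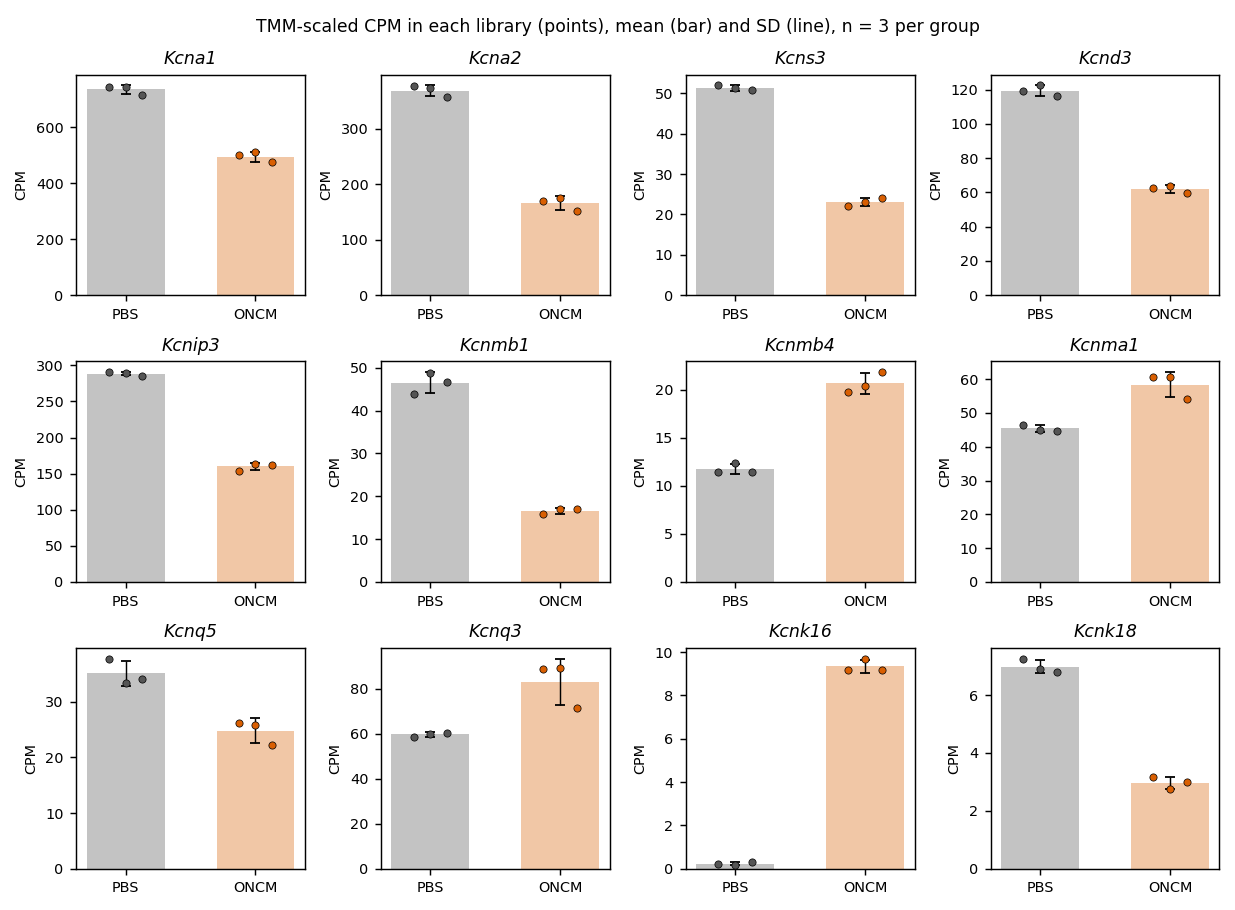
CPM of 12 potassium channel genes in each library (points), with the group mean (bars) and SD (lines), n = 3 per group; each axis starts at 0. Kcnmb4, Kcnma1, Kcnq3 and Kcnk16 stand higher with ONCM and the other 8 lower, with no overlap between groups in any panel.

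Kcnh genes encode the ether-à-go-go family. Of 8 tested, 5 fell and 1 rose, against 24.4% lowered and 23.9% raised among all tested genes. Kcnh7 (chromosome 2, 62693410 to 63184287), of the ERG branch, was counted at 131, 129 and 139.9 CPM with PBS and 53.03, 59 and 41.1 CPM with ONCM. The ONCM mean was 38.4% of the PBS mean, with ONCM replicate 3 the lowest (log2 fold change -1.38, SE 0.14, edgeR adjusted p = 0.0012, and -1.25 without that library). Kcnh7 shares 696 exonic bases with Gca on the opposite strand, which stood at 11.9 and 11.7 CPM. Kcnh2, the ERG gene with the highest level per length, was counted at 132, 127 and 119.7 CPM with PBS and 92.6, 98.7 and 104 CPM with ONCM and fell without overlap (log2 fold change -0.36, SE 0.04, edgeR adjusted p = 1.38e-06). Kcnh6, the remaining ERG gene, fell 1.65-fold, and Kcnh5 and Kcnh8 fell 1.84-fold and 1.89-fold. Kcnh1, the founding ether-à-go-go gene, was counted at 65.5, 62.7 and 60.7 CPM with PBS and 69.2, 68.7 and 67.4 CPM with ONCM. Its small rise (log2 fold change 0.12, SE 0.04, edgeR adjusted p = 0.0133) was lost without PBS replicate 2 (adjusted p = 0.059) and without PBS replicate 3 (adjusted p = 0.0946), and its value on log2(TPM + 1) was 0.05 (limma adjusted p = 0.379).

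The large-conductance calcium-activated channel, called BK, has its pore from Kcnma1 and a beta subunit from a Kcnmb gene. Its genes moved in both directions. Kcnma1 (chromosome 14, 23292288 to 24005110) was counted at 46.6, 44.98 and 44.7 CPM with PBS and 60.6, 60.5 and 54 CPM with ONCM. It rose in all 3 libraries (log2 fold change 0.36, SE 0.05, edgeR adjusted p = 2.79e-06). Kcnmb1 (chromosome 11, 33962955 to 33973641), the beta subunit that raises calcium sensitivity and is best known from smooth muscle, was counted at 43.9, 48.9 and 46.8 CPM with PBS and 15.8, 17.1 and 16.96 CPM with ONCM. This was a fall of 2.79-fold (log2 fold change -1.48, SE 0.05, edgeR adjusted p = 8.60e-14). Kcnmb4 (chromosome 10, 116417861 to 116473859), the beta subunit of brain neurons that slows gating, was counted at 11.4, 12.4 and 11.5 CPM with PBS and 19.8, 20.4 and 21.9 CPM with ONCM. It rose 1.76-fold (log2 fold change 0.81, SE 0.06, edgeR adjusted p = 3.99e-09). In TPM the 2 beta genes were near equal with PBS, with a ratio of Kcnmb4 to Kcnmb1 of 0.933 to 0.959, and the ratio was 4.45 to 4.77 with ONCM. Their summed level with the other Kcnmb genes was 101% of that with PBS. Mural cell markers, from the vessel wall where Kcnmb1 is known, summed to 163 to 166 CPM with PBS and 122 to 125 CPM with ONCM, and their part in the result was not tested. Of the 11 mural genes, 10 were tested, 1 rose, 3 fell and 6 did not pass, with a median log2 fold change of -0.094. Among all tested genes 23.9% rose and 24.4% fell. No mural gene was at 0 in all libraries. Kcnmb1 lies inside the span of Kcnip1 on the opposite strand, with 0 exonic bases in common in GENCODE M21. Kcnmb4 shares 693 exonic bases with the antisense transcript Kcnmb4os2, which was at 0.476 and 1.08 CPM. The gamma subunit gene Lrrc55 did not pass, and Lrrc38 rose from 0.0735 ± 0.0143 to 0.332 ± 0.117 CPM.

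**Figure D4:**
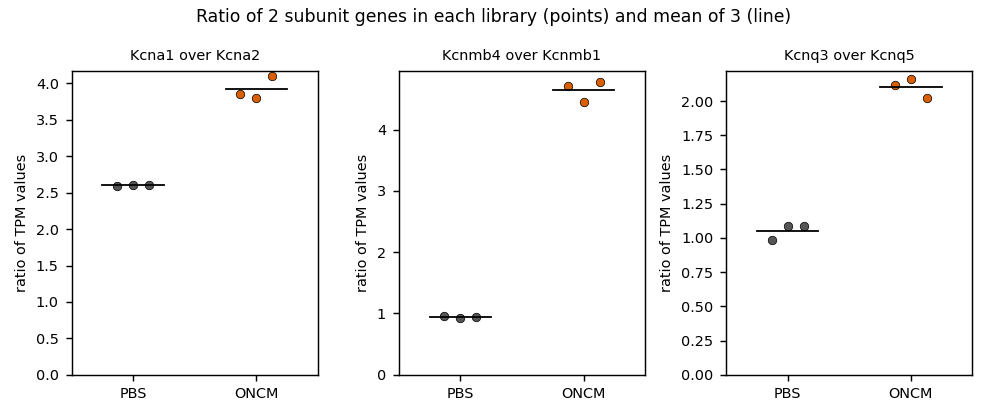
Ratio of the TPM values of 2 subunit genes in each library (points) and the mean of 3 libraries (line), for 3 pairs chosen after the values were seen. The ratio of Kcnmb4 to Kcnmb1 lies between 0.933 and 0.959 with PBS and between 4.45 and 4.77 with ONCM.

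The other ion-activated channels fell or did not pass. Kcnt1, the sodium-activated channel Slack, was counted at 133, 128 and 122 CPM with PBS and 74.9, 77.6 and 78.2 CPM with ONCM. The ONCM libraries were 60.2% of the PBS level (log2 fold change -0.73, SE 0.04, edgeR adjusted p = 1.26e-11), and its relative Kcnt2 fell 1.93-fold from 6.92 CPM. Of the small-conductance genes, whose current follows the action potential, Kcnn1 was counted at 22.8, 23.1 and 24.2 CPM with PBS and 14.04, 14.8 and 14.6 CPM with ONCM. Kcnn2 was counted at 6.33, 6.40 and 6.99 CPM with PBS and 3.14, 3.46 and 2.40 CPM with ONCM. Both fell without overlap, by 1.62-fold and 2.18-fold, and Kcnn3 did not pass. Kcnn4, the intermediate-conductance channel known from T cells, macrophages and red blood cells, was counted at 33.7, 31.8 and 32.8 CPM with PBS and 32.9, 33.6 and 38.3 CPM with ONCM. The groups overlapped and the gene did not pass (log2 fold change 0.09, SE 0.05, edgeR adjusted p = 0.187), and ONCM replicate 3 was the highest. Kcnu1, known from sperm, was counted at 6.56, 5.15 and 6.21 CPM with PBS and 4.50, 4.95 and 4.35 CPM with ONCM and fell 1.30-fold.

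Kcnj genes encode the inward rectifiers, which hold the resting potential. Of the 12 tested, 8 fell, none rose and 4 did not pass, against 24.4% lowered and 23.9% raised among all tested genes. The sum over the subfamily went from 37.8 ± 1.69 to 25.5 ± 0.706 TPM. Kcnj12 had the highest level and was counted at 18.6, 21.02 and 20.3 CPM with PBS and 13.6, 13.5 and 14.6 CPM with ONCM. The groups did not overlap (log2 fold change -0.52, SE 0.06, edgeR adjusted p = 1.77e-06). The genes of channels opened by G proteins, Kcnj3, Kcnj6 and Kcnj9, fell 1.68-fold, 1.56-fold and 1.41-fold. Kcnj9 lost its call without PBS replicate 2 (edgeR adjusted p = 0.121), without ONCM replicate 1 (adjusted p = 0.0999) and with the DESeq2 test. Kcnj11, the pore of the ATP-sensitive channel of neurons, fell 1.37-fold, and Abcc8, its sulfonylurea receptor, fell from 11.7 ± 0.491 to 6.85 ± 0.401 CPM. Kcnj8, the ATP-sensitive pore of vessel mural cells, had at most 12 counts in a library and was not tested, while its receptor partner Abcc9 rose from 0.815 ± 0.0836 to 1.55 ± 0.213 CPM. Kcnj10, the main rectifier of satellite glia, was counted at 4.33, 4.54 and 4.67 CPM with PBS and 4.46, 4.26 and 5.10 CPM with ONCM. It did not pass (log2 fold change 0.03, SE 0.10). Kcnj4 fell 1.87-fold on counts but had -0.09 on the log2(TPM + 1) scale, where the call was lost (limma adjusted p = 0.703). Its call was also lost on log2(TPM + 0.1).

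Kcnk genes encode the tandem-pore leak channels, which pass current at rest. Of 12 tested genes, 3 rose, 4 fell and 5 did not pass, against 23.9% raised and 24.4% lowered among all tested genes. Kcnk16, known as the TALK channel of pancreatic islet cells, lies on chromosome 14, 20261375 to 20269269 on the minus strand, and had 15, 11 and 17 reads in the PBS libraries against 494, 582 and 512 in the ONCM libraries. It was counted at 0.232, 0.197 and 0.294 CPM with PBS and 9.19, 9.69 and 9.17 CPM with ONCM. The gene was barely detected in all PBS libraries and alike in the 3 ONCM libraries, a rise of 38.5-fold (log2 fold change 5.27, SE 0.15, edgeR adjusted p = 3.47e-15). In TPM it went from 0.247 ± 0.0431 to 9.60 ± 0.397 TPM (SD, n = 3), beside 14.3 and 10.8 TPM for Kcnk4, a TRAAK channel gene, with PBS and ONCM. Kcnk12, of the THIK branch, was counted at 3.68, 3.59 and 3.88 CPM with PBS and 5.02, 5.40 and 6.32 CPM with ONCM. The groups did not overlap and it rose (log2 fold change 0.59, SE 0.11, edgeR adjusted p = 0.00019). Kcnk6 rose 1.82-fold at under 1 CPM on average, a call lost without ONCM replicate 3 and with the DESeq2 test.

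Kcnk18, the TRESK channel of nociceptors and trigeminal neurons, was counted at 7.25, 6.90 and 6.80 CPM with PBS and 3.16, 2.75 and 2.99 CPM with ONCM. All ONCM values were far below all PBS values (log2 fold change -1.24, SE 0.10, edgeR adjusted p = 6.77e-09). Kcnk1, a TWIK channel gene and the most abundant of the subfamily, was counted at 62.1, 63.4 and 63.1 CPM with PBS and 38.2, 37.1 and 38.4 CPM with ONCM. It fell without overlap (log2 fold change -0.73, SE 0.04, edgeR adjusted p = 1.53e-11). Of the mechanically gated TREK and TRAAK genes, Kcnk4 fell 1.29-fold without overlap. Kcnk2 was counted at 10.9, 8.81 and 9.98 CPM with PBS and 8.46, 8.51 and 7.65 CPM with ONCM, a fall of 1.21-fold. Its call was lost when libraries were scaled to pan-neuronal genes (edgeR adjusted p = 0.0531), without PBS replicate 1 (adjusted p = 0.0976) or without ONCM replicate 3 (adjusted p = 0.0548). It was also lost with the DESeq2 test and on log2(TPM + 1). Kcnk10 was counted at 11.4, 10.8 and 9.85 CPM with PBS and 9.98, 10.3 and 10.9 CPM with ONCM, and its groups overlapped. Kcnk3, an acid-sensitive TASK channel gene, was counted at 7.56, 7.56 and 7.75 CPM with PBS and 6.49, 7.16 and 7.38 CPM with ONCM. All ONCM values of Kcnk3 lay below the PBS values, yet neither gene passed (edgeR adjusted p = 0.713 and 0.246).

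The sequences before the start of Kcnk16 and of Kcnmb1 are shown because these genes had the largest rise among the potassium channel genes and the larger of the opposed changes within the BK channel. They are taken from the RefSeq table of bases upstream of gene starts on GRCm38.p6, the assembly of mm10, which matched 69 of the 94 genes. They run 5′ to 3′ on the gene's strand, with each CG dinucleotide in capitals. The first has 250 bases, and the other is given for the 192 bases that lie before the gene's start in the deposited table.
Kcnk16, chr14:20269270-20269519, minus strand: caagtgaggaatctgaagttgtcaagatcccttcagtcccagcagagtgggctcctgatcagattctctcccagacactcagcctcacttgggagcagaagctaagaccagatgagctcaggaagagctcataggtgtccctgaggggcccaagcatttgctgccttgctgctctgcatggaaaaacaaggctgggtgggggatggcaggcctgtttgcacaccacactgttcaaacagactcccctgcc
Kcnmb1, chr11:33962763-33962954, plus strand: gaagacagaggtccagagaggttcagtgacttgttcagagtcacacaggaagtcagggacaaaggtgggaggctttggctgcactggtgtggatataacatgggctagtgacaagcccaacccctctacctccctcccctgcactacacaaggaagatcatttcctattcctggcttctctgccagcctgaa
Neither stretch holds a CG dinucleotide, and the full window of Kcnmb1 holds 1. The median was 6 per window of 250 bases over all 32851 windows of the table and 7 over the 94 windows of the 69 potassium channel genes. The motif letters TGANTCA (AP-1), TGACGTCA (CRE) and TTCNNNGAA (GAS), searched on both strands, are in neither window. They are in 6.75%, 1.55% and 7.02% of all windows, and in 4, 0 and 5 of the 57 windows of 40 lowered potassium channel genes. These matches describe letters and not sites.

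Kcne genes encode small single-span subunits that join many pores. The 3 tested fell, against 24.4% lowered among all tested genes. Kcne1l, on the X chromosome, had the highest level per length and was counted at 2.27, 2.09 and 2.39 CPM with PBS and 0.930, 1.02 and 1.31 CPM with ONCM. Its groups did not overlap (log2 fold change -1.05, SE 0.17, edgeR adjusted p = 4.32e-05). Kcne3 fell from 0.561 ± 0.0387 to 0.196 ± 0.122 CPM, and Kcne4 from 2.05 ± 0.211 to 1.42 ± 0.475 CPM. The Kcne4 groups overlapped, and its call was lost without PBS replicate 2, PBS replicate 3, ONCM replicate 2 or ONCM replicate 3. It was also lost with pan-neuronal scaling, with the DESeq2 test and on log2(TPM + 0.1). The 10 genes that were not tested (Kcna7, Kcne1, Kcne2, Kcnj5, Kcnj8, Kcnj13, Kcnk7, Kcnk15, Kcnmb3 and the regulator Kcnrg) had 0 to 17 counts per library. Kcnj8 was counted at 0.108, 0.0894 and 0.0865 CPM with PBS and 0.0930, 0.200 and 0.179 CPM with ONCM, and Kcnrg at 0.0773, 0.143 and 0.138 CPM with PBS and 0, 0.200 and 0.107 CPM with ONCM, with overlapping groups in both.

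**Figure D5:**
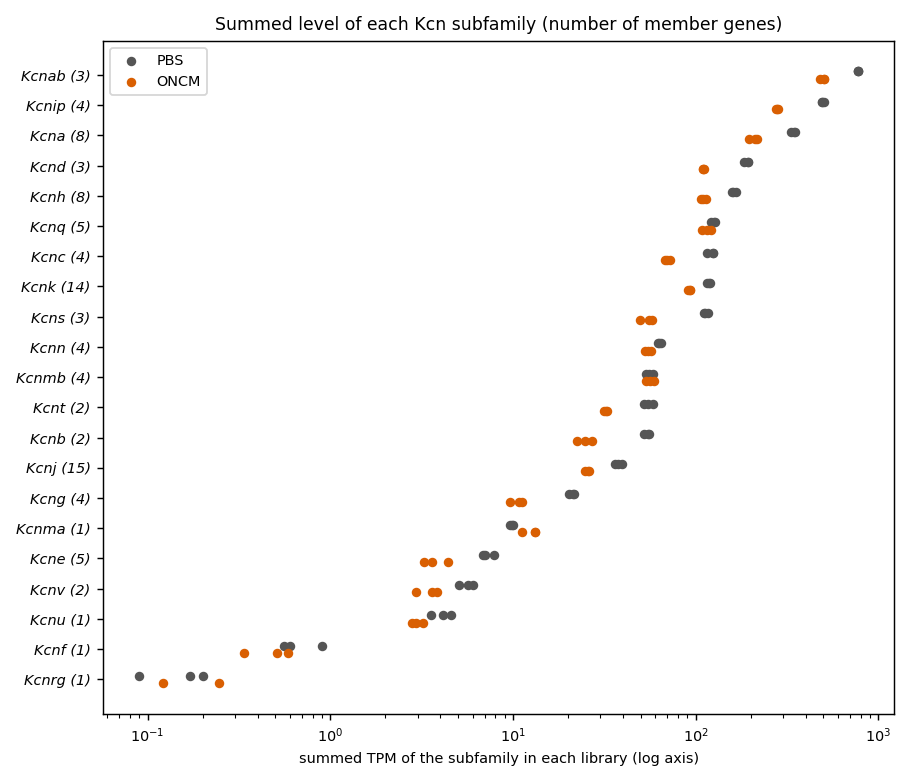
Summed TPM of each Kcn subfamily in each library, on a logarithmic axis, with the number of member genes in brackets. The ONCM points lie left of the PBS points for Kcnab, Kcnip, Kcna, Kcnd and Kcns among others, while the Kcnmb points overlap and the single Kcnma gene lies to the right.

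The partner proteins that place or gate these channels were listed apart from the Kcn genes. Of 57 tested partner genes, 13 rose, 27 fell and 17 did not pass, against 23.9% and 24.4% of all tested genes, with a median log2 fold change of -0.12. On log2(TPM + 1) 6 partner genes rose, and on log2(TPM + 0.1) 7. The genes that gather Kcna channels along the axon were mostly lower, with 11 of 14 lowered and 1 raised. Among them Lgi3 fell from 212 ± 7.24 to 98.1 ± 1.21 CPM (log2 fold change -1.11, SE 0.03, edgeR adjusted p = 6.99e-15), Adam11 from 264 ± 8.11 to 139.9 ± 5.08 CPM and Cntnap1, the paranodal Caspr gene, from 231 ± 8.06 to 142 ± 4.96 CPM. Epb41l3, a scaffold of the juxtaparanode, fell 1.42-fold. The gene that rose was Dlg2, the scaffold PSD-93, at log2 0.22, which was singled out after its value was seen. In TPM the Dlg2 groups overlapped, at 29.4, 31.5 and 30.0 with PBS and 36.8, 35.9 and 28.5 with ONCM. Of the Kcnb partners, Amigo2 fell from 36.2 ± 0.754 to 17.5 ± 1.16 CPM, Amigo3 fell 1.68-fold, and Amigo1 and Vapb fell 1.13-fold and 1.12-fold. Genes of G-protein gating of inward rectifiers went both ways, since 6 rose, 6 fell and 6 did not pass. In that list Rgs6, a regulator that speeds channel closing, fell from 40.04 ± 0.754 to 17.9 ± 0.540 CPM, and Gng2, a gamma subunit, rose from 179 ± 2.40 to 285 ± 6.24 CPM. Of 8 partners of the M-current 1 rose and 3 fell, and of 6 transcriptional regulators known to act on potassium channel genes 3 rose and none fell. Rest, a repressor of neuronal genes, rose from 24.7 ± 1.62 to 27.6 ± 1.62 CPM, by 0.16 on the log2 scale (edgeR adjusted p = 0.0307). The groups overlapped for Rest. Ezh2 and Hdac2 rose by 0.28 and 0.11 on the log2 scale. In TPM Ezh2 went from 4.02 ± 0.163 to 4.66 ± 0.546 and Hdac2 from 110 ± 1.39 to 113 ± 1.29.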

How the data were processed

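RNA was sequenced from 3 PBS and 3 ONCM samples, aligned to mm10 per the submitters' processing notes. Not given in the sources used here: aligner, counter, annotation and strand. The authors deposited 1 table with read counts, FPKM and TPM per gene, per the file headers. Counts were tested with edgeR 4.0.16 in R 4.3.3 (filterByExpr, TMM scaling, robust quasi-likelihood F-test, Benjamini-Hochberg adjustment over 20354 genes, threshold 0.05), a procedure tested on simulated data. The SE came from the log2 fold change over the root of its F statistic. CPM are counts with TMM scaling to a common total. The deposited TPM served for levels between genes, and the deposited FPKM were not used. Libraries held 53770820 to 64477014 counts; replicates differed by more than sampling noise (chi-square per degree of freedom 2.76 to 7.09).

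Samples were grouped by their labels. Genes given by library were the 10 largest rises and falls that passed with a mean of at least 1 CPM, the gene with the highest TPM of each subfamily, a list known from sensory neurons, glia or immune cells, and up to 4 partner genes per list with the smallest p; others are given by count, range or name, and a few genes are counted but not reported here by name. The genes and lists were chosen with earlier results of these data known. The alternatives were DESeq2 1.42.0 (its test and its size factors), limma 3.58.1 (voom, and log2 of TPM plus 1 or 0.1), library totals, pan-neuronal scaling, 2 other filters, a replicate block, no X, Y or mitochondrial genes, a fold threshold of 1.5, and each library left out.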

Additional observations from a re-analysis of the deposited data

How the results depend on the processing

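With no fold minimum, all 64 potassium channel calls kept their sign in each of 17 alternatives that tested them, and 53 kept the call in each; 11 lost it in at least 1 (among them Kcna5, Kcnd2, Kcne4, Kcnh1, Kcnj4, Kcnj6, Kcnj9, Kcnk2, Kcnk6 and Kcns2). A minimum of 1.5-fold, which drops smaller changes by construction, left 39 of the 56 lowered and 4 of the 8 raised potassium channel genes. The count of raised partner genes went from 13 to 6 on log2(TPM + 1) and 7 on log2(TPM + 0.1); the cause was not tested. Leaving out 1 library gave 51 to 56 lowered and 7 to 9 raised potassium channel genes, 27 to 28 lowered and 9 to 14 raised partner genes, and 8752 to 9537 calls over all genes. DESeq2 gave 51 lowered and 7 raised potassium channel genes, limma-voom 57 and 9, and pan-neuronal scaling 54 and 8. Kcnk16 was 3.09 on log2(TPM + 1), a scale that understates the change of low genes, and Kcne4 was -0.83 without ONCM replicate 1.

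Samples with the same replicate number did not deviate together (r = -0.0152, -0.00486 and 0.0129 across genes). With 3 libraries per group these values cannot tell whether the samples were paired, and the labels state no pairing. With the replicate block, 57 potassium channel genes were lowered and 8 raised, 27 partner genes were lowered and 14 raised, and 9597 of all genes passed, against 9829 without it.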

Other observations

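Several potassium channel genes lie next to each other on the chromosome. On chromosome 6, Kcna5, Kcna1 and Kcna6 lie in that order with gaps of 100907 and 62526 bases, and all fell (log2 fold change -0.85, -0.57 and -0.38). On chromosome 3, Kcna2 fell (-1.15) between Kcna3 and Kcna10, which did not pass and were under 1 CPM on average. Kcnk16 lies 79592 bases from Kcnk5, which did not pass (0.26, SE 0.13), and 25409 bases from Nudt13, a gene of the nudix hydrolase family, which rose from 5.47 ± 0.143 to 7.78 ± 0.160 CPM (SD, n = 3; log2 fold change 0.51). Kcnj6 and Kcnj15 are 259861 bases apart and both fell (-0.64 and -0.86). Kcnj9 and Kcnj10 are 11887 bases apart, and Kcnj9 fell while Kcnj10 did not pass. Kcnj16 and Kcnj2 are 38195 bases apart and neither passed. Among all tested genes 23.9% rose and 24.4% fell, and whether neighbouring genes moved together was not tested.

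Of the 4 long noncoding RNAs with a Kcn symbol, Kcnmb4os2, antisense to Kcnmb4, went up from 0.476 ± 0.165 to 1.08 ± 0.321 CPM with an edgeR adjusted p of 0.00242, and Kcnd3os, antisense to Kcnd3, fell from 0.593 ± 0.194 to 0.276 ± 0.132 CPM (log2 fold change -1.09, SE 0.37, edgeR adjusted p = 0.0221). Each moved in the direction of its partner gene. How strand was used in counting is not stated, so reads of a gene and its antisense transcript may not be told apart where their exons overlap. Kcnq1ot1, the imprinted antisense RNA of Kcnq1, stood at 9.05 ± 0.949 and 9.47 ± 1.73 CPM and did not pass, and Kcnmb4os1 was not tested.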
